A study of Rattus norvegicus with 15 samples.

Results

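In the aorta of untreated hypertensive rats, 20 transcripts stood apart from both normotensive rats and hypertensive rats given neferine. They were chosen by their values. Each is listed for all 15 libraries, has a mean of at least 1 in SHR and in WKY, and has all 5 SHR values above, or all 5 below, every value of the other 10 libraries. IDs beginning with MERGE.11573 were left out. Of 39097 transcripts listed for all libraries, 22901 passed the minimum on the means, and 8 of these were higher (0.0349%) and 12 lower (0.0524%) in SHR, 0.0873% in all. Scaling each library to a common median gave 4 higher and 22 lower ones, with 14 of the 20 among them, and quantile normalization gave 5 higher and 17 lower ones, with 12 of the 20 among them. Since the rule used these values, the distance of SHR from the other groups is a description with no test.

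The RNA came from the abdominal aorta, with 5 libraries in each of 3 groups. WKY is the Wistar Kyoto strain, the usual normotensive control of SHR, the spontaneously hypertensive strain, and both received double distilled water for 10 weeks. The third group, SHR+Nef, was SHR given neferine at 10 mg/kg per day for the same time. The labels state neither age nor sex, and the strains differ in many genes besides those that bear on blood pressure. Strain, blood pressure and unstated differences between SHR and WKY therefore cannot be told apart.

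The aortic wall is built of layers of smooth muscle cells and elastic fibres, lined by endothelium and wrapped in connective tissue with fibroblasts, nerves and fat. In hypertension the wall is known to thicken and stiffen, and smooth muscle cells change their tone and their gene expression. Neferine is an alkaloid from the lotus seed that has been studied for relaxation of vessels. A transcript that differs in untreated SHR and lies near WKY under treatment is the pattern that a screen for reversal by a drug looks for. The rule is wider, since it asks only that WKY and SHR+Nef lie on the same side of SHR, near each other or not. The comparison asks how often SHR stands apart in this way and how wide the separation is. The files hold Ensembl rat transcript IDs and IDs of an assembly (MERGE, a locus number and an isoform number). None of the 43936 IDs could be matched to a gene symbol, so no gene function is given, the markers of aortic cell types could not be checked, and at most 2 IDs per direction are printed. The other transcripts are called by direction and number, in order of the gap between SHR and the nearest other library. In bulk tissue, fewer cells of a type and less RNA per cell cannot be told apart.

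Each deposited value is the abundance of 1 transcript, in a unit the sources do not name. The values of a library sum to 496460 to 746274. Every WKY and SHR library lists 41871 transcripts and every SHR+Nef library 41162. The list thus differs with treatment, and its part in the comparisons with SHR+Nef was not tested. SHR replicate 4 stands apart from the other libraries. It had 8259 of the 39097 transcripts at 0, against 2560 to 3739 in the other 14, and a median rank correlation of 0.536 with the other SHR libraries, where the other 14 libraries had 0.665 to 0.717 with their own groups. Several results that rest on it are given with and without it.

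Untreated SHR was the group least often apart. The same rule with WKY as the group apart found 219 transcripts (0.956%), 110 higher (0.48%) and 109 lower (0.476%). With SHR+Nef as the group apart it found 42 (0.183%), 30 higher (0.131%) and 12 lower (0.0524%). The 20 for SHR were thus fewer than the 42 transcripts that set the treated rats apart from both untreated strains. No test was made of the difference between these counts. A group whose libraries vary more meets the rule less easily. The SHR libraries had lower rank correlations with their own group than those of WKY and SHR+Nef. The part of this in the counts was not tested. The order of the 3 counts was the same in 20 of 21 other settings. The exception was leaving out SHR replicate 5, which gave 92 transcripts apart in SHR, 60 higher and 32 lower, against 68 apart in SHR+Nef and 243 in WKY. With 4 SHR libraries in place of 5 the rule is easier to meet. Leaving out each of the other SHR libraries gave 35 to 49 transcripts, with 41 without SHR replicate 4.

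**Figure D1:**
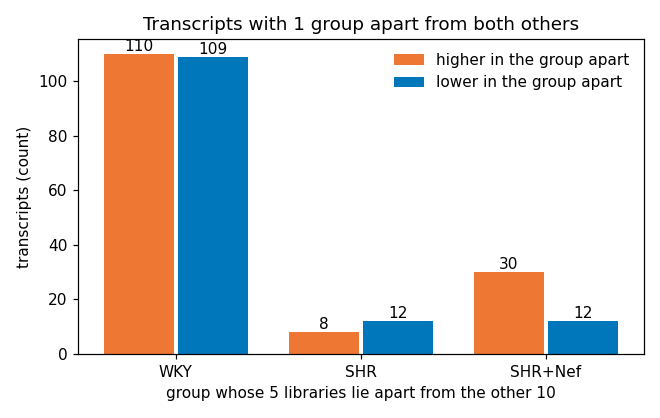
Number of transcripts (y axis, count) for which the 5 libraries of 1 group (x axis) lie above or below all 10 other libraries, out of 22901. SHR has the lowest pair of bars, 8 higher and 12 lower, and WKY the highest, 110 and 109.

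The separation was narrow. On the log2(value + 1) scale, the gap between the nearest SHR library and the nearest other library had a median of 0.05 over the 20 transcripts and a maximum of 0.24. In 19 of the 20 the nearest values differed by a ratio under 1.1. Among the 219 transcripts apart in WKY the median gap was 0.18 and the maximum 5.04, and in 42 of them the gap was over 0.5. Among the 42 apart in SHR+Nef the median was 0.07 and the maximum 0.41, and none had a gap over 0.5, as none of the 20 had.

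At the edge of the rule, the narrowest higher transcript had its lowest SHR value at 5.81 and the highest other value at 5.79. The first one outside had a lowest SHR value of 2.73 and a highest other value of 2.74. Among the lower ones, the narrowest had its highest SHR value at 1.60 and the lowest other value at 1.61, and the first outside had 7.713 and 7.711. Membership thus turned on differences of well under 1% at this edge. At the minimum on the means, a higher transcript with a WKY mean of 1.00 was inside and one with 0.825 outside, and a lower transcript with an SHR mean of 1.06 was inside and one with 0.907 outside.

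**Figure D2:**
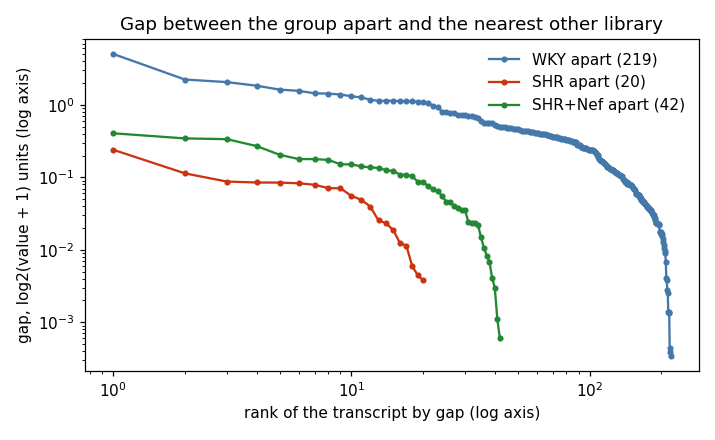
Gap on the log2(value + 1) scale between the group apart and the nearest other library (y axis, log scale) against the rank of the transcript by that gap (x axis, log scale), for the 3 groups. The 20 transcripts apart in SHR have a maximum of 0.24, and those apart in WKY reach 5.04.

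The higher transcript with the widest gap was the assembled isoform MERGE.27935.1. It stood at 127, 132, 134, 471 and 121 in SHR replicates 1 to 5, at 73.7, 93.2, 22.5, 90.1 and 87.1 in WKY replicates 1 to 5, and at 114, 102, 90.2, 107 and 114 in SHR+Nef replicates 1, 2, 4, 5 and 6. The SHR values lay above both other groups, with SHR replicate 4 far above its own group and WKY replicate 3 far below its own. The means were 197 ± 153 in SHR, 73.3 ± 29.4 in WKY and 105 ± 9.94 in SHR+Nef (SD, n = 5 each). Without SHR replicate 4 the SHR mean was 129 ± 5.83 (SD, n = 4), so that the ratio of SHR to SHR+Nef went from 1.87 to 1.22 and that of SHR to WKY from 2.69 to 1.76. All SHR+Nef values but 1 were above the highest WKY value. The nearest SHR+Nef library, at 114, was close to the lowest SHR library at 121. Under median scaling or quantile normalization MERGE.27935.1 did not meet the rule.

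The next higher transcript, MERGE.1272.3, had similar values in the other 2 groups. It stood at 3.00, 4.08, 2.97, 6.01 and 3.31 in SHR replicates 1 to 5, at 0.846, 1.61, 1.84, 1.95 and 2.39 in WKY, and at 1.87, 1.71, 0.923, 2.78 and 2.56 in SHR+Nef. SHR replicate 4 was again the highest, while WKY and SHR+Nef covered nearly the same range. The mean was 3.87 ± 1.27 in SHR, against 1.73 ± 0.57 in WKY and 1.97 ± 0.738 for SHR+Nef (SD, n = 5 each). Without SHR replicate 4 the SHR mean was 3.34 ± 0.517 (SD, n = 4), and by the rule these 4 values lay above the other groups.

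The remaining 6 higher transcripts, all assembled isoforms too, comprised a pair with libraries near 0 and 4 with graded values. Higher transcript 4 stood at 79.5, 70.1, 72.0, 183 and 62.2 in SHR, at 5.03, 17.2, 16.4, 19.2 and 15.2 in WKY, and at 0.232, 56.1, 0.323, 47.1 and 60.05 in SHR+Nef. Its SHR+Nef libraries were split. Replicates 2, 5 and 6 lay below the lowest SHR library and far above WKY, and replicates 1 and 4 were near 0. The SHR+Nef mean of 32.8 ± 30.02 (SD, n = 5) therefore describes no library of that group. Higher transcript 6 was at 16.0 to 20.5 in the 5 SHR libraries. It was also at 13.5 and 15.3 in WKY replicates 3 and 5 and at 15.9 and 15.7 in SHR+Nef replicates 2 and 4, and at 0.114 to 1.04 in the other 6 libraries. Here SHR was the group in which every library had the isoform at a high level, and 4 libraries of the other groups came close to it.

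Higher transcript 3 had similar values within each group. It stood at 3.42, 3.72, 2.82, 3.35 and 3.36 in SHR, at 1.47 to 2.40 in WKY and at 1.5 to 2.67 in SHR+Nef. Its means were 3.33 ± 0.328 in SHR, 1.83 ± 0.352 in WKY and 1.96 ± 0.45 in SHR+Nef (SD, n = 5 each). SHR replicate 4 was not its highest library. Higher transcript 5 ranged from 3.88 to 10.6 in SHR, with replicates 1 and 3 high, and from 2.10 to 3.75 in the other groups. Higher transcripts 7 and 8 had the narrowest gaps, with means of 1.60 ± 0.318 and 6.07 ± 0.353 in SHR, 1.00 ± 0.23 and 5.22 ± 0.833 in WKY, and 0.93 ± 0.187 and 5.48 ± 0.395 in SHR+Nef (SD, n = 5 each). In transcript 8 the SHR mean was 1.16 times the WKY mean and 1.11 times the SHR+Nef mean.

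**Figure D3:**
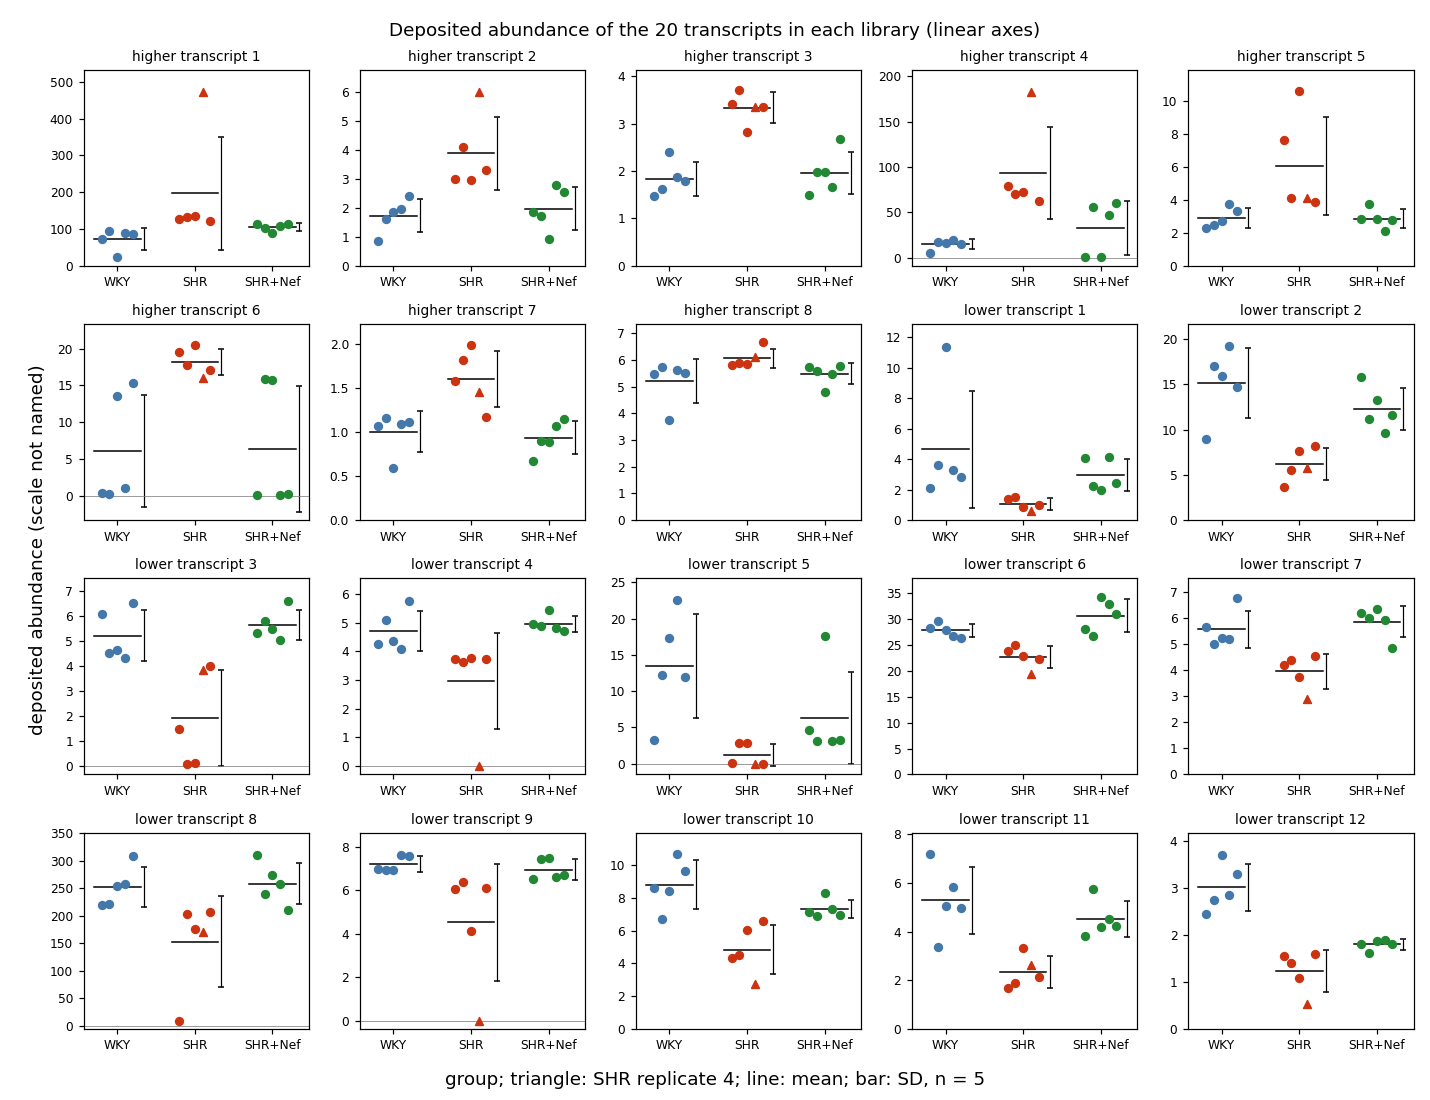
Deposited abundance (y axes, linear, scale not named) of the 20 transcripts in each library by group (x axes), with a point per library, a triangle for SHR replicate 4, a line at the mean and a bar of 1 SD (n = 5). In 19 of 20 panels the nearest SHR and other values differ by a ratio under 1.1, and SHR replicate 4 is the farthest SHR library in 10.

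The lower transcript with the widest gap of all 20 was the assembled isoform MERGE.3486.1. It stood at 1.38, 1.51, 0.826, 0.57 and 0.995 in SHR, at 2.09, 3.62, 11.4, 3.26 and 2.83 in WKY, and at 4.11, 2.21, 1.97, 4.12 and 2.41 in SHR+Nef. The SHR libraries were all low, with no value above 1.51, and WKY replicate 3 was far above the rest. The means were 1.06 ± 0.39 in SHR, 4.63 ± 3.81 in WKY and 2.96 ± 1.06 in SHR+Nef (SD, n = 5 each). SHR was thus at 0.228 times WKY and 0.357 times SHR+Nef. Without WKY replicate 3 the WKY mean was 2.95 and SHR was at 0.359 times WKY, close to its ratio to SHR+Nef. Without SHR replicate 4 the ratios were 0.254 and 0.398.

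The next, ENSRNOT00000012109, is an Ensembl transcript. It stood at 3.69, 5.55, 7.62, 5.78 and 8.20 in SHR, at 8.95, 17.0, 16.0, 19.3 and 14.6 in WKY, and at 15.8, 11.1, 13.2, 9.61 and 11.6 in SHR+Nef. The SHR libraries were spread evenly below the others, and WKY replicate 1 came nearest to them. The means were 6.17 ± 1.80 in SHR, 15.2 ± 3.87 in WKY and 12.3 ± 2.35 in SHR+Nef (SD, n = 5 each). SHR was at 0.407 times WKY and 0.503 times SHR+Nef, and at 0.413 and 0.511 times without SHR replicate 4. Leaving out that library changed the ratios little.

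Lower transcripts 6 and 7, both Ensembl transcripts, had small differences. Transcript 6 was at 19.5 to 25.0 in SHR, 26.5 to 29.8 in WKY and 26.8 to 34.4 in SHR+Nef, and transcript 7 at 2.90 to 4.56, 5.00 to 6.78 and 4.84 to 6.34. The SHR mean of transcript 6 was 0.816 times the WKY mean and that of transcript 7 was 0.711 times. Without SHR replicate 4 these ratios were 0.846 and 0.759. Lower transcripts 10 and 11 were at 0.549 and 0.442 times WKY, and at 0.661 and 0.519 times SHR+Nef. Without SHR replicate 4 they were at 0.608 and 0.428 times WKY, and at 0.732 and 0.502 times SHR+Nef.

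In 6 of the 12 lower transcripts at least 1 SHR library was under 0.1 times the highest of the 15 values. The share of all 22901 with an SHR library under that limit was not computed, so nothing is read from this count. Lower transcript 4 was at 3.62 to 3.79 in 4 SHR libraries and at 0 in SHR replicate 4, with WKY at 4.08 to 5.77 and SHR+Nef at 4.71 to 5.43. Lower transcript 9 was at 0 in the same library, at 4.10 to 6.38 in the other 4, at 6.92 to 7.62 in WKY and at 6.5 to 7.5 in SHR+Nef. In both, leaving out that library brought the ratio of SHR to WKY from 0.632 to 0.79 and from 0.628 to 0.785. Lower transcript 8 was at 9.74 in SHR replicate 1 and at 170 to 207 in the other 4, with WKY at 219 to 308 and SHR+Nef at 210 to 310. Lower transcript 3 was at 0.0784 and 0.11 in SHR replicates 2 and 3, at 1.49 in replicate 1, and at 3.84 and 4 in replicates 4 and 5. Lower transcript 5 was at 0.0067 to 2.82 in SHR, at 3.19 to 22.5 in WKY and at 3.05 to 4.63 in SHR+Nef apart from 17.5 in replicate 4. The SHR means of these transcripts lie between libraries near 0 and libraries only slightly under the other groups. A library of any group under 0.1 times the highest value occurred in 9 of the 20, and in 42.1% of the 22901 transcripts.

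SHR replicate 4 was the SHR library farthest from the other groups in 3 of the 8 higher and 7 of the 12 lower transcripts. Over the 22901 transcripts it was the highest of the 5 SHR libraries in 25.0% and the lowest in 42.3%. The part of its many values at 0 in the lower transcripts was not tested. All 20 transcripts met the rule without it. Leaving out an SHR library cannot end the separation and can only bring the SHR mean under the minimum. Nothing is therefore read from this. SHR replicate 5 was the one nearest to the other groups in 10 of the 20, and replicate 3 in 5. Over the 22901 transcripts SHR replicate 5 was the highest of the 5 SHR libraries in 22.5% and the lowest in 19.5%. SHR replicate 3 was the highest in 17.6% and the lowest in 11.5%. The nearest library of the other groups was an SHR+Nef one in 12 and a WKY one in 8, and SHR+Nef replicate 6 was the nearest in 6. Shares over all transcripts were not computed for the nearest other library, so nothing is read from those counts.

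The comparison of SHR+Nef with WKY is a description too, since the rule used the values of both groups and placed them on the same side of SHR. The test was limma on log2(value + 1) over the 29095 transcripts listed for all libraries that reached 1 in at least 5 of them, with Benjamini-Hochberg adjustment and calls at an adjusted p under 0.05. All 20 transcripts were among those tested. Of all transcripts tested 1.3% were called between SHR+Nef and WKY, and of the 20 none was (limma, smallest adjusted p = 0.258). An unadjusted p under 0.05 occurred in 1 of the 20 and in 8.73% of all tested (limma). At a share of 1.3% less than 1 call would come from 20 transcripts, so nothing is read from the count of 0. The median absolute difference was 0.12 log2 units over the 20 and 0.22 over all tested. The 2 groups did not overlap in 1 of the 20, against 3.45% of the 22901. That was lower transcript 12, at 2.45 to 3.71 in WKY, 1.61 to 1.89 in SHR+Nef and 0.523 to 1.60 in SHR, the transcript with the smallest unadjusted p.

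A difference that did not pass does not show that treated SHR and WKY were alike. For MERGE.27935.1 the difference of SHR+Nef from WKY was 0.67 log2 units, with a 95% interval from -0.21 to 1.54 (limma, adjusted p = 0.764). For MERGE.1272.3 it was 0.11, from -0.39 to 0.62 (limma, adjusted p = 0.98), for MERGE.3486.1 it was -0.35, from -1.05 to 0.35 (limma, adjusted p = 0.905), and for ENSRNOT00000012109 it was -0.26, from -0.74 to 0.21 (limma, adjusted p = 0.879). These differences moved with single libraries. Without WKY replicate 3 the difference of MERGE.27935.1 was 0.29 and that of MERGE.3486.1 was -0.019. For ENSRNOT00000012109 it was -0.43 without WKY replicate 1 and -0.17 without WKY replicate 4, and for MERGE.1272.3 it ranged from -0.022 without WKY replicate 1 to 0.26 without SHR+Nef replicate 4. The narrowest interval of the 20 ran from -0.09 to 0.35, for lower transcript 6, and the widest from -2.49 to 2.01, for higher transcript 4. On this scale the SHR+Nef mean lay between those of WKY and SHR in 11 of the 20 and on the far side of WKY in 9. The share over all transcripts was not computed, and the rule placed both groups on the same side of SHR. Nothing is therefore read from this split.

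**Figure D4:**
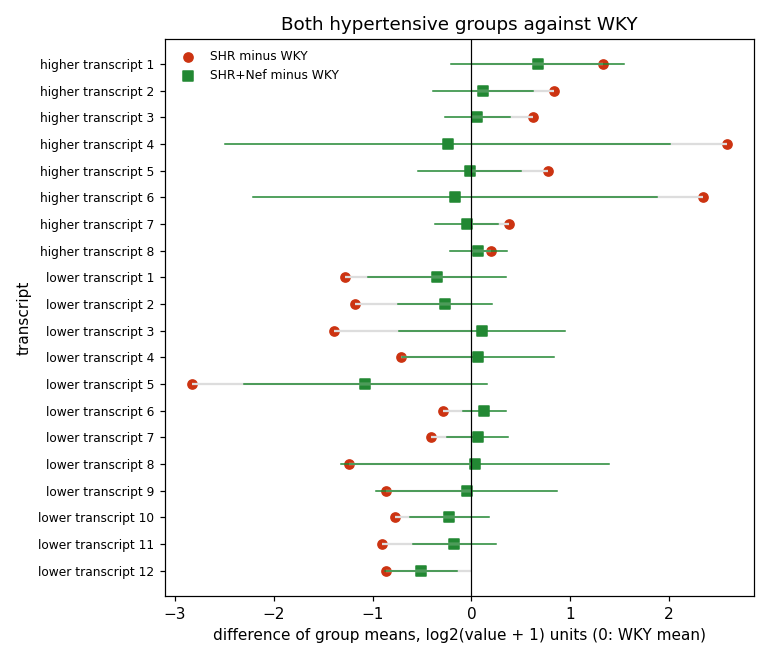
Difference of the SHR mean (red circles) and the SHR+Nef mean (green squares, with 95% intervals from limma) from the WKY mean, on the log2(value + 1) scale (x axis), for the 20 transcripts (y axis). The intervals of SHR+Nef cross 0 in 19 transcripts and not in lower transcript 12.

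The contrasts with SHR, which set the choice of the transcripts, are likewise a description. Between SHR and WKY, limma called 4 of the 20, all lower in SHR, where 1.14% of all transcripts tested were called and 0.471% were called lower. They were ENSRNOT00000012109 (log2 difference -1.17, standard error 0.22, limma, adjusted p = 0.0159) and lower transcripts 5, 11 and 12 (limma, adjusted p of 0.0257, 0.0345 and 0.0206). The other 16 did not pass, among them all 8 higher ones. Counting the 4 called, 16 of the 20 had an unadjusted p under 0.05, and so had 9.47% of all tested (limma). Between SHR+Nef and SHR none of the 20 was called and 0.00687% of all transcripts were (limma, smallest adjusted p = 0.553). Here 15 of the 20, chosen for this difference, and 6.15% of all tested had an unadjusted p under 0.05 (limma). Against the mean of WKY and SHR+Nef 1 of the 20 was called, ENSRNOT00000012109 (limma, adjusted p = 0.0457), and 0.196% of all transcripts. There 19 of the 20 and 8.11% of all tested had an unadjusted p under 0.05 (limma). With 1 library left out there was again 1 call without WKY replicate 1, WKY replicate 2 or SHR replicate 5, and in the other 12 fits none of the 20 was called (limma, 17 to 19 at an unadjusted p under 0.05). Both comparisons with SHR share the SHR libraries. The call of ENSRNOT00000012109 between SHR and WKY ended without WKY replicate 3 or 4 (limma, adjusted p = 0.0504 and 0.0536) and with only those 2 groups in the model (limma, adjusted p = 0.082). Without either of these WKY libraries none of the 20 was called (limma, 15 at an unadjusted p under 0.05 each time), and without WKY replicate 5 or SHR replicate 1 there were 1 and 2 calls. The median absolute differences were 0.86 log2 units from WKY and 0.76 from SHR+Nef over the 20, and 0.26 and 0.25 over all transcripts tested.

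Of the 20, 15 were assembled isoforms (75.0%), a kind that held 56.7% of the 22901. All 8 higher transcripts were assembled isoforms, and the 5 Ensembl transcripts were all lower. The 15 came from 15 loci, so no locus gave more than 1.

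The other isoforms of the same loci were not used to choose a transcript, although each had to miss the rule itself. In 4 of the 15 loci no other isoform was listed for all libraries, and in the other 11 there were 1 to 7. In none of these 11 was the sum over the locus apart in SHR as the isoform was. Of 8862 assembled locus sums past the minimum on the means, 7 were apart in SHR. Such sums were thus rare among all loci, so nothing is read from their absence in these 11. The sum of the other isoforms was shifted in SHR in the same direction as the isoform in 8 of the 11 and in the opposite direction in 3. Without SHR replicate 4 the counts were again 8 and 3, but 4 of the 11 loci had turned, MERGE.27935.1 and MERGE.3486.1 from the same to the opposite direction. Over 9116 assembled transcripts past the minimum on the means that had other isoforms, the same direction occurred in 48.3%, and no test was made of the members' share. MERGE.27935.1 made up 20.7% ± 4.10 of its locus sum in SHR, 11.2% ± 4.40 in WKY and 18.0% ± 5.02 in SHR+Nef (SD, n = 5 each). Its 2 other isoforms summed to 332 to 1676 in SHR, with SHR replicate 4 the highest, 502 to 740 in WKY and 330 to 680 in SHR+Nef. Those sums overlapped widely between the groups.

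At the locus of higher transcript 6 the isoforms stood in opposite order. In the 9 libraries where the transcript was at 13.5 or more, its 4 other isoforms summed to 0 to 3.85. In the 6 libraries where it was at 1.04 or less they summed to 8.56 to 11.1 in 5, and to 2.90 in WKY replicate 1. The transcript made up 91.3% ± 5.86 of the locus in SHR, 38.6% ± 43.4 in WKY and 33.9% ± 44.3 in SHR+Nef (SD, n = 5 each). The large SDs reflect libraries at one or the other level. The locus sum was 17.8 to 23.4 in SHR, 3.22 to 17.4 in WKY and 8.72 to 19.7 in SHR+Nef, so that SHR+Nef overlapped SHR.

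Higher transcript 4 was 1 of 8 isoforms of its locus. The other 7 summed to 182 to 413 in SHR, 14.8 to 55.6 in WKY and 31.1 to 301 in SHR+Nef. SHR and WKY did not overlap in this sum, while 4 of the 5 SHR+Nef libraries, at 163 to 301, lay in or near the range of SHR and replicate 4 was at 31.1. In SHR+Nef replicate 1 the transcript was near 0 and the other isoforms were at 163. The locus of lower transcript 8, also with 8 isoforms, had its other isoforms at 132 to 334 in SHR, 247 to 400 in WKY and 287 to 440 in SHR+Nef, overlapping in part. At the locus of higher transcript 3 the other isoforms were at 29.7 to 52.3 in SHR, 46.8 to 51.2 in WKY and 41.7 to 53.5 in SHR+Nef, and the transcript made up 6.99% ± 1.85, 3.66% ± 0.695 and 3.88% ± 0.689 of the sum (SD, n = 5 each).

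**Figure D5:**
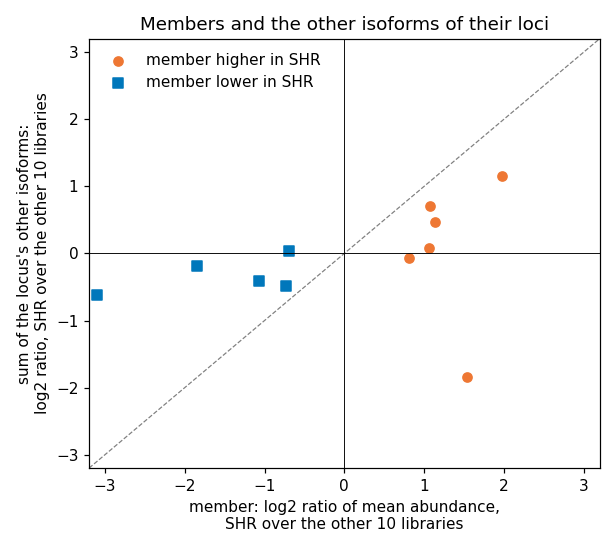
Log2 ratio of mean abundance in SHR to the mean of the other 10 libraries, for the transcript (x axis) and for the sum of the other isoforms of its locus (y axis), in the 11 loci with other isoforms. In 8 loci both have the same sign, with SHR replicate 4 included, and higher transcript 6 is the point at 1.54 and -1.84.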

How the data were processed

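RNA sequencing of rat abdominal aorta, depleted of ribosomal RNA per the labels' protocols, gave 15 libraries. The tables deposited by the authors hold a fractional signal per transcript. Its unit (FPKM or TPM), the aligner and the estimator: not given in the sources used here. limma and mm10, a mouse build, appear in the submitters' processing notes, although the IDs are of rat. The labels gave the groups and replicate numbers and do not state that each library is a separate animal, so p-values may measure only technical spread. Low values in a library were at 0.983 to 1.26 times those of WKY replicate 1 (the most frequent ratio), highest in SHR replicate 4. Read depth is not known beyond this, and intervals for counting error could not be computed. No libraries were copies (smallest SD of log2 differences 0.901).

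The rule was applied to the values as deposited. limma 3.58.1 in R 4.3.3 was run with the 3 groups in 1 model (12 residual degrees of freedom, trend and robust options, two-sided) on log2(value + 1), which understates changes of low transcripts, and tested on simulated data. The transcripts and tests were chosen with earlier results of these data known. IDs are printed for the 2 transcripts per direction with the widest gap. The gene lists and cell markers planned could not be tested without symbols. Same-numbered libraries did not deviate together (correlations of deviations from -0.0793 to 0.0976), and the labels do not say that numbers pair animals. matplotlib 3.10.9 (Python 3.11.15) drew the figures. Alternatives were 2 scalings, other minimums, locus sums, other limma settings, a replicate block and leaving out each library.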

Additional observations from a re-analysis of the deposited data

Results flagged for a closer look

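In 69 sets of 5 values, each from 1 group, the highest and the lowest library were compared with the others. For independent, normally distributed values chance alone sets a library apart in about 5% of such sets. Most of these sets are deposited values of transcripts chosen by those values, so no excess over that share is read from the count. In 15 sets 1 library stood apart, and 6 of the 15 were SHR replicate 4. These were its summed abundance (746274), its transcripts at 0 (8259), its median rank correlation with its group (0.536), MERGE.27935.1 (471, the other SHR libraries at 121 to 134), higher transcript 4 (183, the others at 62.2 to 79.5) and lower transcript 4 (0, the others at 3.62 to 3.79). SHR replicate 1 stood apart in lower transcript 8 (9.74, the others at 170 to 207). WKY replicate 3 stood apart in MERGE.27935.1 (22.5), in higher transcripts 7 (0.594) and 8 (3.74), and in MERGE.3486.1 (11.4), and WKY replicate 1 in higher transcript 4 (5.03). In SHR+Nef, replicate 4 stood apart in lower transcript 5 (17.5, the others at 3.05 to 4.63), replicate 6 in lower transcript 7 (4.84) and replicate 2 in lower transcript 12 (1.61).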

How the results depend on the processing

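The count of 20 depended on scaling for its members more than for its size. Median scaling gave 26 transcripts apart in SHR (4 higher, 22 lower; 14 of the 20 kept) and quantile normalization 22 (5 higher, 17 lower; 12 kept), and 10 were kept under both, 2 higher and 8 lower, so that the balance of directions moved with the scaling. MERGE.27935.1 was kept under neither, and MERGE.1272.3, MERGE.3486.1 and ENSRNOT00000012109 under both. A mean minimum of 5 gave 7 (4 higher, 3 lower), with 85 in WKY and 11 in SHR+Nef, and assembled locus sums gave 7 (4 higher, 3 lower), with 98 and 27. Leaving out 1 library gave 22 to 92 in SHR (higher 7 to 60, lower 12 to 32), 227 to 333 in WKY and 46 to 152 in SHR+Nef, where 152 was without SHR+Nef replicate 6. Locus sums apart like the isoform numbered 0 to 1 with 1 library left out, the 1 being without WKY replicate 1.

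Between SHR and WKY, limma called 331 transcripts, 161 with the stricter filter of 5 in 5 libraries, 189 with only those groups in the model and 216 (without WKY replicate 3) to 374 when single libraries were dropped. Of the 20 it called 2 of the 12 that passed the stricter filter, 1 with only those groups, and 0 to 4 when single libraries were dropped. Between SHR+Nef and SHR it called 2 transcripts, 0 with a pseudocount of 0.1 (1693 with an unadjusted p under 0.05) and with the stricter filter (680), 4 with only those groups and 2 to 5 with 1 library left out. Between SHR+Nef and WKY it called 377, 680 with array quality weights, which also called 1 of the 20, 180 with the stricter filter, and 247 (without WKY replicate 3) to 534 when single libraries were dropped. Against the mean of WKY and SHR+Nef it called 57 for SHR, 35 with the stricter filter and 32 (without SHR+Nef replicate 4; 37 without WKY replicate 3 or 4) to 64 with 1 library left out, and of the 20 it called 1, but 3 with array quality weights, 0 without a filter and 0 to 1 when single libraries were dropped.

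With the replicate block limma called 145 transcripts between SHR and WKY, and 0 of the 20. There 14 of the 20 and 2475 of the 29095 tested had an unadjusted p under 0.05 (limma). ENSRNOT00000012109 had an adjusted p of 0.0953 (limma). Between SHR+Nef and SHR it called 0 (1905 with an unadjusted p under 0.05), and between SHR+Nef and WKY 164. For SHR against the mean of both it called 17, and 0 of the 20. The numbers were not found to pair the libraries. The difference of MERGE.1272.3 between SHR+Nef and WKY ranged from -0.022 (without WKY replicate 1) to 0.259 (without SHR+Nef replicate 4). The causes of these changes were not tested. Where depth is unknown, values near 0 cannot be told from failed estimates.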
